A study of Mus musculus with 12 samples.

Results

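The genes described here build focal adhesions and the contractile actin cytoskeleton. They are 34 of the 24458 rows of the expression table, taken by name from a list that covers adhesion plaque proteins, actin crosslinkers, the ezrin, radixin and moesin (ERM) family, caveola genes, actins, myosin II and actin-binding proteins. To compare paired SCLC (small cell lung cancer) lines, RNA was sequenced from 2 SMC lines and 2 Non-SMC lines of mouse, with 3 libraries per line and 6 per group. These groups are those of the sample labels, which were followed here, although the data availability text of the paper names TAZ-altered and control SMC for this series. SMC#1 is paired with Non-SMC#1 (pair 1) and SMC#2 with Non-SMC#2 (pair 2). SMC lines were started from cells sorted for high NCAM with little or no CD44 and grow as floating spheres, whereas Non-SMC lines were started from cells sorted for low NCAM with high CD44 and grow attached. All 4 lines were untreated and came from lung tumors of Rb1L/L, Trp53L/L mice of mixed background (S129, Balb-c and C57Bl/6), in which both genes are deleted by Cre from an adenovirus under the CMV promoter delivered into the trachea, so both deletions are shared by both groups. Each group is therefore 2 lines, and no label gives the libraries of a line as separate cultures, so the p-values below measure library spread, which may be technical. Levels are in FPKM, fragments scaled to the length of the transcript and to the mapped fragments of the library, so they can be set side by side between genes.

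Focal adhesions are the plaques at which integrins hold cells to the matrix. Talin and vinculin couple integrin tails to actin, LIM domain proteins such as zyxin gather where the filaments are under tension, and myosin II pulls on filaments that alpha-actinin and filamin bundle. Many of the actin-binding genes are known in smooth muscle and in myofibroblasts and are targets of serum response factor (SRF) with its MRTF cofactors, while caveolae are coated membrane pits and ERM proteins tie the membrane to cortical actin.

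The labelled cell types were checked against marker genes. The neuroendocrine marker Chga had 214 to 485 FPKM in SMC libraries, against 0 to 0.0401 FPKM in Non-SMC libraries. Insm1 had 138 to 306 FPKM in SMC libraries, against 0 to 1.146 FPKM in Non-SMC libraries, and Syp had 29.3 to 53.2 FPKM in SMC libraries, against 0.216 to 0.587 FPKM in Non-SMC libraries, so these neuroendocrine markers were at or near 0 in Non-SMC lines. Fibroblast markers summed to 0.613 to 4.01 FPKM in SMC and 309 to 1201 in Non-SMC, and 5 of 7 could be tested, all 5 lower in SMC over both pairs. Of these, Pdgfra, Pdgfrb, Col1a1 and Col3a1 passed the filter only through Non-SMC libraries and so had to be lower. Dcn was higher in pair 1 (log2 difference 1.69, limma adjusted p = 4.03e-09) and lower in pair 2 (-4.43, limma adjusted p = 1.69e-13). Smooth muscle markers summed to 4.22 to 6.46 FPKM in SMC and 19.0 to 46.8 in Non-SMC, nearly all of it Smtn, while Myh11, Des, Lmod1, Synpo2 and Myocd stayed at or under 0.223 FPKM in each library. Endothelial markers summed to at most 0.392 FPKM and leukocyte markers to 0.849 to 2.27 FPKM in SMC libraries and 8.83 to 18.5 FPKM in Non-SMC libraries. Of the leukocyte markers Cd14 and Cd68 could be tested and were lower in SMC over both pairs (Cd68 did not pass the test in pair 1, limma adjusted p = 0.865), and Ptprc was at most 0.0626 FPKM in each library. Cd14 passed the filter only through Non-SMC libraries and so had to be lower. The part of these marker levels in the results below was not tested. The libraries held an estimated 28200000 to 43800000 fragments, and across genes 2 libraries of a line had a Spearman correlation of 0.983 to 0.997, and 2 libraries of different groups one of 0.634 to 0.659.

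Of the 34 genes, 33 were lower and 1 (Rdx) was higher in SMC than in Non-SMC lines (limma on log2(FPKM + 1), Benjamini-Hochberg adjusted p under 0.05). Over the 13122 genes tested, 42.4% were lower and 44.7% higher. The median log2 difference of the 34 genes was -2.19, ranging from -7.30 for Msn to 0.80 for Rdx, beside a median of 0.02 over all genes tested. A fall of at least 1 on the log2 scale was called for 30 of the 34 genes (17.3% of all genes tested), and a fall of at least 2 for 21 (7.54%). All 6 SMC libraries lay below all 6 Non-SMC libraries for 30 genes (27.1%) and above them for 1 gene (28.0%), and the groups overlapped for Ezr, Parvb and Tgfb1i1. All 34 genes passed the filter of 1 FPKM in 3 libraries, 10 of them (Acta2, Cav1, Cnn1, Flnc, Myl9, Ptrf, Tagln, Tgfb1i1, Tns1 and Tpm2) only through Non-SMC libraries. A gene that passed only in that way had to be lower in SMC. Of the other 24 genes, 23 were lower and 1 was higher. Summed over the 34 genes, transcripts took 0.541 to 0.657% of all FPKM in SMC libraries and 1.79 to 2.54% in Non-SMC libraries. With each of the 12 libraries left out in turn, 33 genes were lower and 1 was higher each time. In cultures measured in bulk, fewer cells that express a gene and less RNA per cell cannot be told apart.

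**Figure D1:**
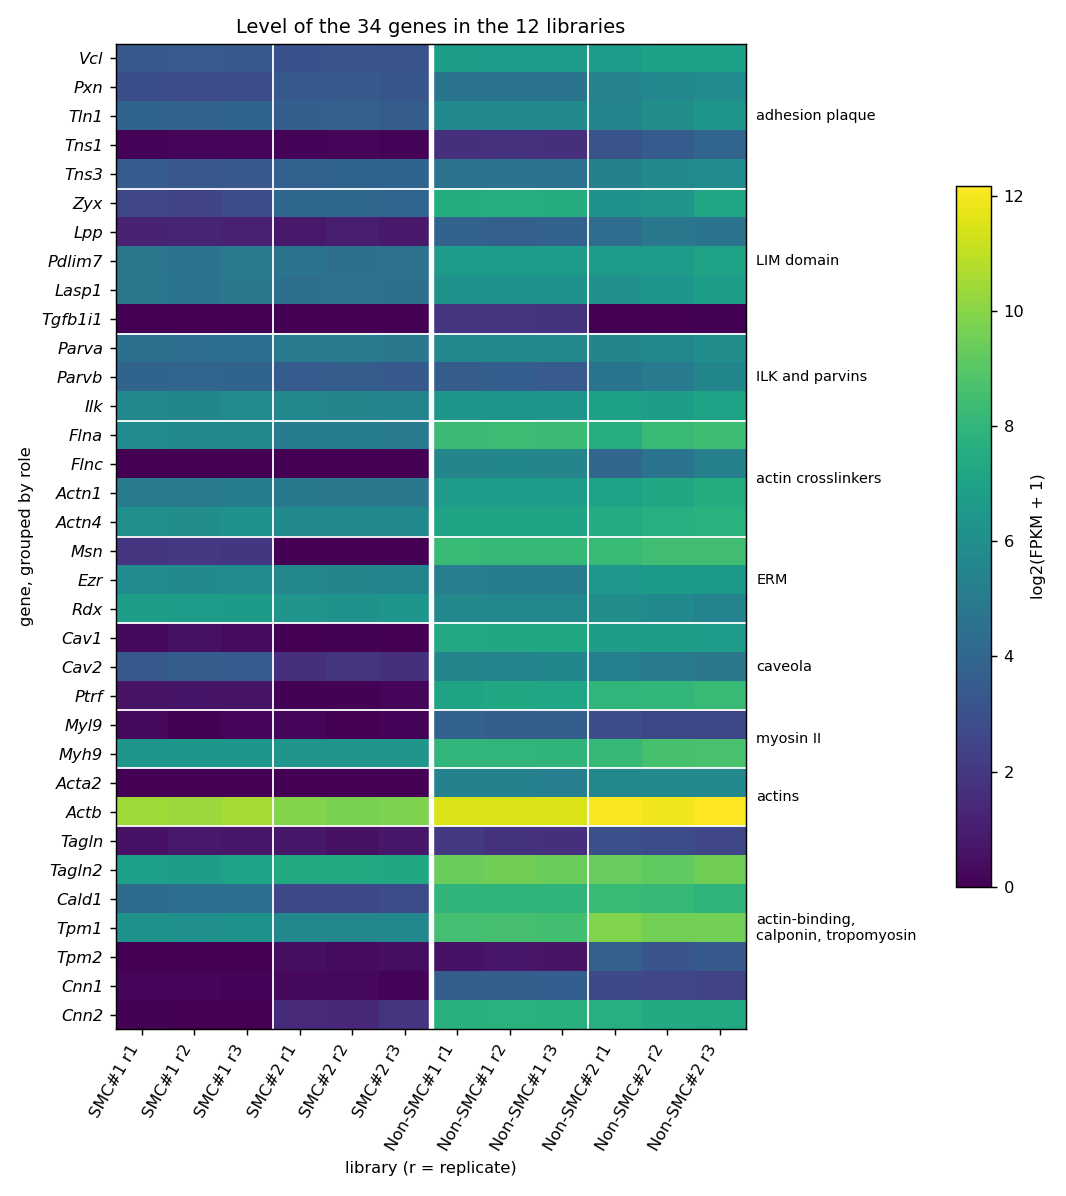
Level of each of the 34 genes (rows, grouped by role) in each library (columns, SMC libraries on the left) as log2(FPKM + 1), from dark (0) to bright. The left side is darker for 30 genes with no overlap between groups, Rdx is brighter in SMC, and Ezr, Parvb and Tgfb1i1 overlap.

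With the line in place of the library as the unit (means of 2 SMC and 2 Non-SMC lines, 1 residual degree of freedom), 23 of the 34 genes were lower (9.72% of all genes tested) and none was higher (8.49%). Among the 23 were Acta2, Cav1, Cnn1, Flnc, Myl9 and Ptrf, which passed the filter only through Non-SMC libraries and so had to be lower. The 11 genes whose call was lost were Actn4, Tns1, Parva, Parvb, Ilk, Ezr, Rdx, Tgfb1i1, Tagln, Tpm2 and Actb, with log2 differences of -2.48 to 0.80.

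The promoters of 6 genes, chosen after their values and motifs were seen, are shown: Cnn2, Myl9 and Vcl for a CArG box, Acta2 and Flnc as genes at or near 0 in all SMC libraries with the other motif searched, and Msn as the gene with the largest fall. The motifs were searched on both strands of the RefSeq promoter windows of GRCm38.p6 (250 bases before to 50 after each start site): the CArG box, to which SRF binds, counted only as the perfect consensus, and GGAATG or its complement CATTCC, the core letters to which TEAD factors bind. The windows are chr19:34255324-34255623 (minus strand) for Acta2, chr6:29432903-29433202 (plus) for Flnc, chr10:79988350-79988649 (plus) for Cnn2, chr2:156775214-156775513 (plus) for Myl9, chr14:20929148-20929447 (plus) for Vcl and chrX:96095795-96096094 (plus) for Msn. Capitals mark the motif letters and lower case all other bases.
Acta2: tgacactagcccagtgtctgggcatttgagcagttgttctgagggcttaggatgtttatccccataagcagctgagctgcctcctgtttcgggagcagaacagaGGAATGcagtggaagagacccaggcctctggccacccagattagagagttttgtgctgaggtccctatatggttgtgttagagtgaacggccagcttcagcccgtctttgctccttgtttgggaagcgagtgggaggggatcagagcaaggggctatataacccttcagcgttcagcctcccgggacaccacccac
Flnc: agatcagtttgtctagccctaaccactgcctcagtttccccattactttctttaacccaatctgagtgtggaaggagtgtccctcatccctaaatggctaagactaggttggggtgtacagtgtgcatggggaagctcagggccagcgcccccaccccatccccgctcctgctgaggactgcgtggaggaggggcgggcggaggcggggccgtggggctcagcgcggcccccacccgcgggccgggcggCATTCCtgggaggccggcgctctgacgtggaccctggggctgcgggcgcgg
Cnn2: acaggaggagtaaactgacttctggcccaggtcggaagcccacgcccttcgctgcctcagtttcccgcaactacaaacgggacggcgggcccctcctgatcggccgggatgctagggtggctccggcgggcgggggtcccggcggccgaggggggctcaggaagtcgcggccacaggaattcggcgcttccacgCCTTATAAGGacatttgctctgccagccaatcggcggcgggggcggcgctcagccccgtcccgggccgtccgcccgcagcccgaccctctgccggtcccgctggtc
Myl9: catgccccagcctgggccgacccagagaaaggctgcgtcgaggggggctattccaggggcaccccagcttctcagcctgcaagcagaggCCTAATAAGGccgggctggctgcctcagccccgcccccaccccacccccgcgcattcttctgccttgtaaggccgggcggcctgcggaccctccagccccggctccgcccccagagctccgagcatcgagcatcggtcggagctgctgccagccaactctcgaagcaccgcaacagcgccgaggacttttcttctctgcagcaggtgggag
Vcl: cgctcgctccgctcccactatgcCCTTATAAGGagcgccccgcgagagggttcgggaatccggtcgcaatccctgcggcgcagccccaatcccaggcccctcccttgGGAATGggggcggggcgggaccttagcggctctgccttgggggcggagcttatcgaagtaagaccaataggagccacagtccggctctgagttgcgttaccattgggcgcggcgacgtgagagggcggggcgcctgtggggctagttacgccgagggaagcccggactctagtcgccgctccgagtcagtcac
Msn: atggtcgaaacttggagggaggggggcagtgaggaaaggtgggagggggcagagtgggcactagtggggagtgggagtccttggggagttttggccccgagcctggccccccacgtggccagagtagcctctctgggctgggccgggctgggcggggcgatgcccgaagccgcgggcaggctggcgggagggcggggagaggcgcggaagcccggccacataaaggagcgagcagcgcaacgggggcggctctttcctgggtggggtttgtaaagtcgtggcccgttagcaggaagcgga
Of the 34 genes, 29 had a window, 36 windows in all. A perfect CArG box was present in 3 of the 36 (8.33%), those of Cnn2, Myl9 and Vcl, and in 1.63% of the 32851 windows of all genes. GGAATG or CATTCC was present in 12 (33.3%), from 10 genes (Acta2, Actn4, Cald1, Flna, Flnc, Lpp, Ptrf, Tagln2, Tpm1 and Vcl), and in 14.7% of all windows. The CArG box began 56 bases before the start site in Cnn2, 161 bases before it in Myl9 and 227 bases before it in Vcl. GGAATG or CATTCC began 146 bases before the start site in Acta2, 143 bases before it in Vcl and 1 base before it in Flnc, and the Msn window held neither motif. Sites with a mismatch, such as the near-consensus CArG elements known from the Acta2 promoter, were not counted, and the matches describe letters, not binding.

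The 5 adhesion plaque genes were all lower in SMC. Vinculin (Vcl), which reinforces the link from talin to actin, was 12.4-fold lower, with 8.89 ± 1.21 FPKM in SMC and 110.5 ± 9.74 in Non-SMC (SD, n = 6 libraries of 2 lines each). Its log2 difference was -3.50 (SE 0.052, limma adjusted p = 1.3e-15), with -3.27 in pair 1 and -3.73 in pair 2. Talin-1 (Tln1), which binds and activates integrins, had 11.1 to 14.1 FPKM in SMC and 44.1 to 83.4 in Non-SMC, a log2 difference of -2.12 (SE 0.114). Paxillin (Pxn), a scaffold for adhesion kinases, had 6.05 to 9.79 FPKM in SMC and 24.3 to 58.0 in Non-SMC (-2.05, SE 0.071), with Non-SMC#2 above Non-SMC#1. The tensins bind integrin tails and actin and differed widely in level. Tns3 had 9.03 to 14.0 FPKM in SMC and 23.7 to 59.9 in Non-SMC, whereas Tns1 had 0.0959 to 0.133 FPKM in SMC and, within Non-SMC, 2.18 to 2.33 FPKM in Non-SMC#1 and 8.03 to 14.9 in Non-SMC#2. The Tns1 difference was therefore unequal in the pairs, -1.54 in pair 1 and -3.42 in pair 2 (pair 1 minus pair 2 1.89, SE 0.202, limma adjusted p = 3.87e-06).

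The 5 LIM domain genes were lower as well. Zyxin (Zyx, mm9 chr6:42299827-42310212) recruits actin assembly factors to adhesions and stress fibers. It had 4.94, 4.51 and 5.81 FPKM in SMC#1 and 16.1, 16.5 and 14.8 in SMC#2, against 185, 192 and 184 FPKM in Non-SMC#1 and 72.1, 80.9 and 141 in Non-SMC#2. SMC#1 was the lowest line and Non-SMC#1 the highest, with no overlap between groups. The log2 difference was -4.96 (SE 0.186) in pair 1 and -2.50 (SE 0.186) in pair 2, a difference between the pairs of -2.46 (SE 0.263, limma adjusted p = 3.72e-06). Zyx was lower in SMC#1 than in SMC#2 (-1.47) and higher in Non-SMC#1 than in Non-SMC#2 (0.99), and replicate 3 of Non-SMC#2 stood above both other libraries of that line. Lpp, the zyxin relative named for lipomas, had 0.790 to 1.37 FPKM in SMC and 12.4 to 27.9 in Non-SMC (-3.19, SE 0.075). Pdlim7, a PDZ and LIM protein of actin filaments, had 21.4 to 32.0 FPKM in SMC and 102 to 126 in Non-SMC (-2.05, SE 0.073), and Lasp1, which binds actin and zyxin, had 21.3 to 28.2 FPKM in SMC and 70.6 to 109 in Non-SMC (-1.68, SE 0.087).

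Tgfb1i1 (mm9 chr7:135390326-135399213) encodes Hic-5, a paralog of paxillin. It had 0, 0 and 0.00775 FPKM in SMC#1 and 0.00767, 0 and 0.0162 in SMC#2, against 2.67, 2.71 and 2.40 FPKM in Non-SMC#1 and 0.00751, 0.0135 and 0.0593 in Non-SMC#2. Only Non-SMC#1 reached 1 FPKM, and Non-SMC#2 overlapped the SMC libraries. The call over both pairs (-0.93, SE 0.033) thus came from pair 1 (-1.84), since pair 2 was at -0.03 (limma adjusted p = 0.61).

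Integrin-linked kinase and the parvins, which form a complex that ties integrins to actin, had a median log2 difference of -1.01. Ilk (mm9 chr7:112885104-112891439) had 50.1, 46.5 and 58.8 FPKM in SMC#1 and 49.8, 45.9 and 44.7 in SMC#2, against 85.5, 85.1 and 83.5 FPKM in Non-SMC#1 and 121, 114 and 130.3 in Non-SMC#2. All SMC libraries were below all Non-SMC libraries, by 2.09-fold on the group means (log2 difference -1.03, SE 0.064, limma adjusted p = 3.8e-09). Parva (mm9 chr7:119571220-119735202), encoding alpha-parvin, had 21.2, 20.2 and 20.9 FPKM in SMC#1 and 30.0, 30.7 and 27.5 in SMC#2, against 49.97, 50.1 and 48.5 FPKM in Non-SMC#1 and 44.98, 51.1 and 61.2 in Non-SMC#2. The groups did not overlap, with a log2 difference of -1.01 (SE 0.067). Parvb (mm9 chr15:84062473-84146039), encoding beta-parvin, had 13.9, 14.45 and 14.2 FPKM in SMC#1 and 10.5, 11.1 and 9.83 in SMC#2, against 10.9, 11.4 and 10.42 FPKM in Non-SMC#1 and 25.3, 30.5 and 47.4 in Non-SMC#2. SMC#1 lay above Non-SMC#1 in each library, and only Non-SMC#2 stood higher than the rest. The Parvb difference was 0.36 (SE 0.161) in pair 1, which did not pass the test (limma adjusted p = 0.0587), and -1.58 (SE 0.161) in pair 2, where it fell, and the difference between the pairs was 1.93 (SE 0.228, limma adjusted p = 9.49e-06). Over both pairs it fell by 0.61 on the log2 scale, a call that was lost without a term for the line (limma adjusted p = 0.126).

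The 4 actin crosslinkers fell. Filamin A (Flna), which crosslinks filaments and binds integrin tails, was 6.52-fold lower, with 32.3 to 59.5 FPKM in SMC and 191.5 to 337 in Non-SMC (log2 difference -2.70, SE 0.110). The muscle filamin gene Flnc (mm9 chr6:29383153-29411888) had 0.00358, 0 and 0 FPKM in SMC#1 and 0, 0.00249 and 0.00313 in SMC#2, against 46.1, 46.6 and 45.02 FPKM in Non-SMC#1 and 15.1, 24.3 and 37.9 in Non-SMC#2. It was listed at 0 in 3 of 6 SMC libraries and reached 15.1 FPKM or more in all Non-SMC libraries, with the widest spread among the libraries of Non-SMC#2. Its log2 difference was -5.10 (SE 0.153, limma adjusted p = 1.69e-12). The alpha-actinin genes Actn1 and Actn4 bundle antiparallel filaments. Actn1 was 4.32-fold lower (29.9 ± 1.94 FPKM in SMC and 129 ± 32.6 in Non-SMC, SD, n = 6 libraries of 2 lines each), and Actn4 was 2.68-fold lower (62.3 ± 8.19 FPKM in SMC and 167 ± 36.2 FPKM in Non-SMC, SD, n = 6 libraries of 2 lines each). Actn4 took 65.6 to 69.6% of the summed FPKM of both genes in SMC libraries and 54.8 to 58.5% in Non-SMC libraries.

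In the ERM family the makeup differed between the groups as well as the summed level. Moesin (Msn, mm9 chrX:93291384-93363892) showed the largest fall of the 34 genes. It had 2.64, 3.02 and 2.97 FPKM in SMC#1 and 0, 0.0252 and 0 in SMC#2, against 301, 282 and 280.3 FPKM in Non-SMC#1 and 307, 348 and 347.5 in Non-SMC#2. SMC#2 was at or near 0 and SMC#1 slightly above it, and both were far below all Non-SMC libraries (log2 difference -7.30, SE 0.048, limma adjusted p = 1.67e-18). Radixin (Rdx, mm9 chr9:51855255-51896843) had 108, 104 and 99.6 FPKM in SMC#1 and 80.1, 75.3 and 82.6 in SMC#2, against 51.4, 49.5 and 49.6 FPKM in Non-SMC#1 and 62.7, 53.9 and 44.4 in Non-SMC#2. All SMC libraries lay above all Non-SMC libraries, by 1.77-fold on the group means. The Rdx log2 difference was 0.80 (SE 0.073, limma adjusted p = 2.49e-07), with 1.04 in pair 1 and 0.57 in pair 2, and it did not pass the test with the line as the unit (limma adjusted p = 0.0882).

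Ezrin (Ezr, mm9 chr17:6942480-6987129) had 56.8, 54.0 and 58.5 FPKM in SMC#1 and 48.1, 44.8 and 43.7 in SMC#2, against 35.45, 34.3 and 34.7 FPKM in Non-SMC#1 and 88.9, 97.7 and 99.7 in Non-SMC#2. Both SMC lines lay between the Non-SMC lines. Ezr rose in pair 1 (0.68, SE 0.069) and fell in pair 2 (-1.05, SE 0.069), the only one of the 34 genes that passed the test with opposite signs in the pairs (6.81% of all genes tested did), and the difference between the pairs was 1.73 (SE 0.097, limma adjusted p = 6.99e-09). The mean over both pairs, -0.18 (SE 0.049, limma adjusted p = 0.00322), was not called without a term for the line (limma adjusted p = 0.596), and under quantile normalization it was 0.066 (limma adjusted p = 0.231). As shares of the summed FPKM of Msn, Ezr and Rdx, Rdx made up 61.8 to 65.4% in SMC libraries and 9.02 to 13.7% in Non-SMC libraries. Msn made up at most 1.87% in SMC libraries and 66.9 to 77.6% in Non-SMC libraries. The summed level of the 3 genes was 120.1 to 168 FPKM in SMC and 364.5 to 499.6 in Non-SMC.

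**Figure D2:**
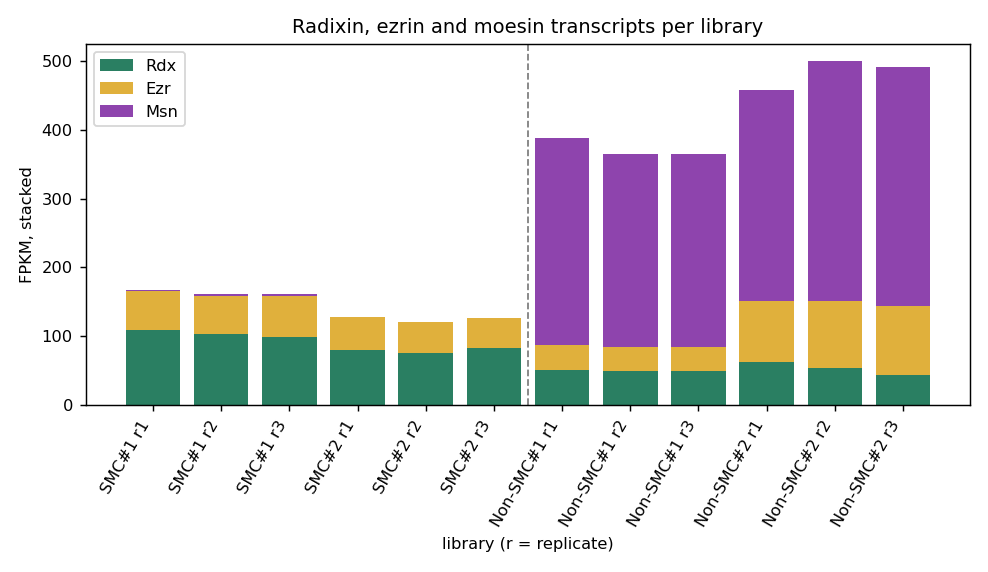
FPKM of Rdx, Ezr and Msn stacked for each library, with SMC libraries left of the dashed line and Non-SMC libraries right of it. Rdx is the thickest segment in SMC libraries (61.8 to 65.4% of the sum) and Msn in Non-SMC libraries (66.9 to 77.6%).

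The 3 caveola genes fell strongly. Caveolin-1 (Cav1, mm9 chr6:17256335-17291328), the main protein of the caveola coat, had 0.242, 0.480 and 0.2801 FPKM in SMC#1 and 0, 0.0405 and 0.0254 in SMC#2, against 160.2, 157 and 152.5 FPKM in Non-SMC#1 and 108, 108 and 99.9 in Non-SMC#2. SMC#2 was at or near 0, and the groups were far apart (log2 difference -6.79, SE 0.050, limma adjusted p = 3.35e-18). Ptrf (mm9 chr11:100818051-100831931), encoding cavin-1 that stabilizes caveolae, had 0.540, 0.599 and 0.545 FPKM in SMC#1 and 0.0640, 0.0614 and 0.144 in SMC#2, against 136, 150 and 141 FPKM in Non-SMC#1 and 256, 262 and 292 in Non-SMC#2. SMC#2 was again below SMC#1, whereas Non-SMC#2 was above Non-SMC#1 (log2 difference -7.24 over both pairs, SE 0.048). Cav2, the partner of Cav1, lies beside it on chromosome 6 (mm9 chr6:17231185-17239130) and kept a measurable level. It had 9.54 to 11.1 FPKM in SMC#1 and 2.12 to 2.54 in SMC#2, against 42.4 to 47.4 FPKM in Non-SMC#1 and 27.3 to 36.6 in Non-SMC#2 (-2.66, SE 0.070, limma adjusted p = 3.99e-13). Cav2 took at least 95.2% of the summed caveolin FPKM in SMC libraries and 21.3 to 25.4% in Non-SMC libraries.

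Both myosin II genes were lower. Myh9, the heavy chain of non-muscle myosin IIA, had 82.6 ± 2.42 FPKM in SMC and 309.8 ± 76.05 in Non-SMC (SD, n = 6 libraries of 2 lines each), a 3.75-fold lower level (log2 difference -1.86, SE 0.081, limma adjusted p = 9.35e-11). Myl9, a regulatory light chain, had 0.0303 to 0.216 FPKM in SMC, against 11.8 to 13.0 FPKM in Non-SMC#1 and 5.13 to 6.30 in Non-SMC#2 (-3.08, SE 0.057). Among the 3 non-muscle heavy chains, Myh9 took 53.7 to 55.9% of the summed FPKM in SMC libraries and 85.4 to 90.1% in Non-SMC libraries. Myh14, the IIC heavy chain, took 13.9 to 21.5% in SMC libraries and at most 0.817% in Non-SMC libraries, while Myh10, the IIB heavy chain, had 36.8 to 45.6 FPKM in SMC and 37.2 to 47.7 in Non-SMC (limma adjusted p = 0.682).

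Of the actins, Acta2 (mm9 chr19:34314826-34329863), the smooth muscle alpha-actin used as a marker of myofibroblasts, was listed at 0 in all 6 SMC libraries, against 39.7, 40.0 and 36.3 FPKM in Non-SMC#1 and 50.02, 51.3 and 51.3 in Non-SMC#2. It was the only one of the 34 genes listed at 0 in each SMC library (log2 difference -5.50, SE 0.039, limma adjusted p = 2.84e-18). Beta-actin (Actb), the main cytoplasmic actin, was the most abundant of the 34 genes in each line and was 3.14-fold lower, with 1144 ± 282 FPKM in SMC and 3588 ± 807 in Non-SMC (SD, n = 6 each, log2 difference -1.65, SE 0.080). Its share of the summed FPKM of 6 actin genes was 73.4 to 75.0% in SMC libraries, against 68.9 to 70.2% in Non-SMC#1 and 79.5 to 81.0% in Non-SMC#2. Actin genes are nearly alike in sequence, and the sources do not say how reads that map to several of them were counted, so the division among them is uncertain, as is that among the regulatory light chain genes of myosin II.

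The 7 actin-binding genes of the smooth muscle type (the transgelins, caldesmon, tropomyosins and calponins) were lower in SMC. Calponin 2 (Cnn2, mm9 chr10:79451345-79458145), which binds actin and restrains myosin, had 0.0441, 0 and 0.0185 FPKM in SMC#1 and 1.74, 1.53 and 2.59 in SMC#2, against 212.5, 216 and 211 FPKM in Non-SMC#1 and 194, 172 and 165 in Non-SMC#2. SMC#1 was at or near 0 and SMC#2 slightly above it, the opposite order to that of Msn and Cav2, and the groups were far apart (log2 difference -6.82, SE 0.077, limma adjusted p = 9.52e-17). Cnn1, the calponin of differentiated smooth muscle, had 0.0972 to 0.208 FPKM in SMC, against 11.5 to 12.01 FPKM in Non-SMC#1 and 4.67 to 5.44 in Non-SMC#2. Caldesmon (Cald1), which inhibits myosin on actin, had 19.0 to 20.8 FPKM in SMC#1 and 5.14 to 5.88 in SMC#2, against 240 to 248 FPKM in Non-SMC#1 and 239 to 304 in Non-SMC#2. The Cald1 difference between the pairs was 1.89 (SE 0.125), with a gap of 1.73 (SE 0.088) between the SMC lines and one of -0.16 between the Non-SMC lines that did not pass the test (limma adjusted p = 0.149).

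Tropomyosins wind along actin filaments. Tpm1 was 9.80-fold lower, with 48.6 to 74.7 FPKM in SMC and 362 to 933 in Non-SMC (log2 difference -3.18, SE 0.061). Tpm2 (mm9 chr4:43526598-43536426) had 0.0180, 0 and 0 FPKM in SMC#1 and 0.412, 0.301 and 0.347 in SMC#2, against 0.532, 0.686 and 0.535 FPKM in Non-SMC#1 and 12.4, 8.11 and 9.78 in Non-SMC#2. Non-SMC#2 was the one line with more than 1 FPKM of Tpm2, and the difference between the pairs was 2.37 (SE 0.152, limma adjusted p = 2.56e-08), while the gap between the Non-SMC lines was -2.79 (SE 0.107). Transgelins bind and stabilize actin filaments. Tagln2 had 111 to 169 FPKM in SMC and 591 to 749 in Non-SMC (-2.27, SE 0.074), and Tagln (SM22), a marker of smooth muscle, had 0.465 to 0.794 FPKM in SMC and 2.24 to 6.85 in Non-SMC (-1.60, SE 0.085).

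**Figure D3:**
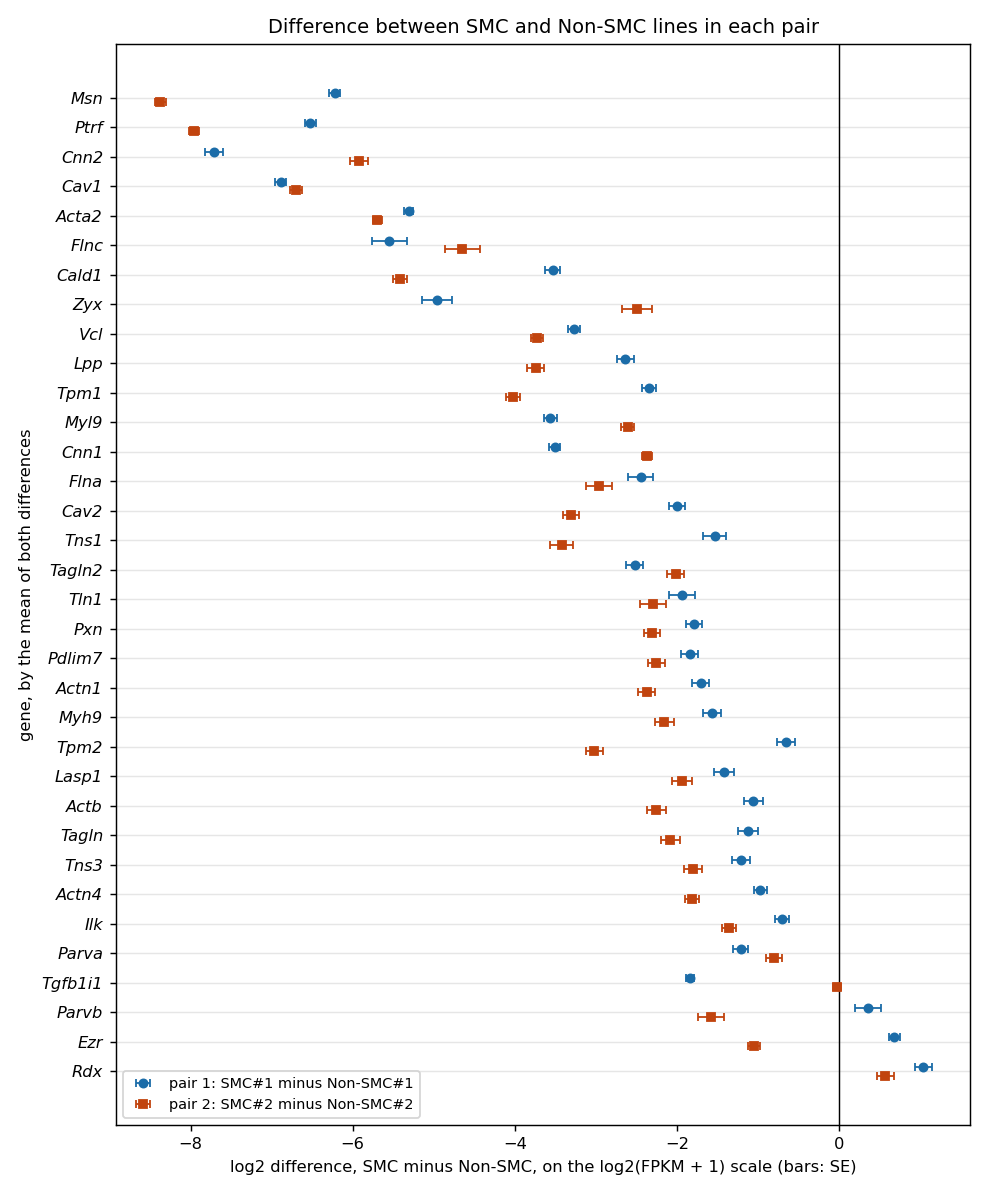
Log2 difference (SMC minus Non-SMC, on the log2(FPKM + 1) scale, bars are SE) of each of the 34 genes in pair 1 (circles) and pair 2 (squares), ordered by the mean of both. Rdx lies right of 0 in both pairs, Ezr and Parvb on opposite sides of 0, and Tgfb1i1 in pair 2 at -0.03.

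By itself, pair 1 had 31 of the 34 genes lower (36.5% of all genes tested) and 2 higher (Ezr and Rdx, 43.9%), with Parvb not past the test. Pair 2 had 32 lower (42.8%) and 1 higher (Rdx, 39.2%), with Tgfb1i1 not past the test. In both pairs alike, 30 genes were lower (30.2% of all genes tested). Among the 30 were Acta2, Cav1, Cnn1, Flnc, Myl9, Ptrf, Tagln, Tns1 and Tpm2, which passed the filter only through Non-SMC libraries and so had to be lower over both pairs. The median log2 difference of the 34 genes was -1.89 in pair 1 and -2.37 in pair 2, beside 0.087 and -0.047 over all genes tested. The size of the difference was unequal between the pairs for 31 genes (60.6% of all genes tested), and Tln1, Flna and Cav1 did not pass this test. Cav1 did pass it with a pseudocount of 0.1 (1.23, limma adjusted p = 0.000794). Of the 31, 23 had a higher difference in pair 1 (38.2% of all genes tested) and 8 a lower one (22.5%). The higher ones were thus 74.2% of the calls among the 34 genes, beside 63.0% of all calls over the genes tested. That split moved with the scaling of libraries: quantile normalization gave 17 and 9 genes, with 48.4% of all calls higher, and median-ratio scaling gave 18 and 8, with 51.5%. A difference between the pairs of at least 1 on the log2 scale was called for 15 genes (21.4% of all genes tested). For genes near 0 in an SMC line the log2(FPKM + 1) scale limits the size of the fall, which also limits the difference between the pairs.

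The lines of one group were also compared. Between the SMC lines, 22 of the 34 genes differed (56.8% of all genes tested), 15 higher (36.2%) and 7 lower (20.6%) in SMC#1 than in SMC#2, and 63.8% of all calls were higher. Under quantile normalization these were 8 and 7 genes, with 48.8% of all calls higher, and under median-ratio scaling 10 and 7, with 50.5%. The widest gaps were in Msn (1.94), Cav2 (1.79), Cald1 (1.73), Cnn2 (-1.52) and Zyx (-1.47), the 5 genes that differed by at least 1 (11.4% of all genes tested). Between the Non-SMC lines, 25 of the 34 genes differed (57.3%), 8 higher (25.8%) and 17 lower (31.5%) in Non-SMC#1 than in Non-SMC#2. A gap of at least 1 was called for 9 genes (12.4% of all genes tested), among them Tpm2 (-2.79), Tns1 (-1.88), Parvb (-1.53), Ezr (-1.43), Tpm1 (-1.14) and Tns3 (-1.05) lower in Non-SMC#1, and Tgfb1i1 (1.81), Cnn1 (1.09) and Myl9 (1.02) higher in it.

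**Figure D4:**
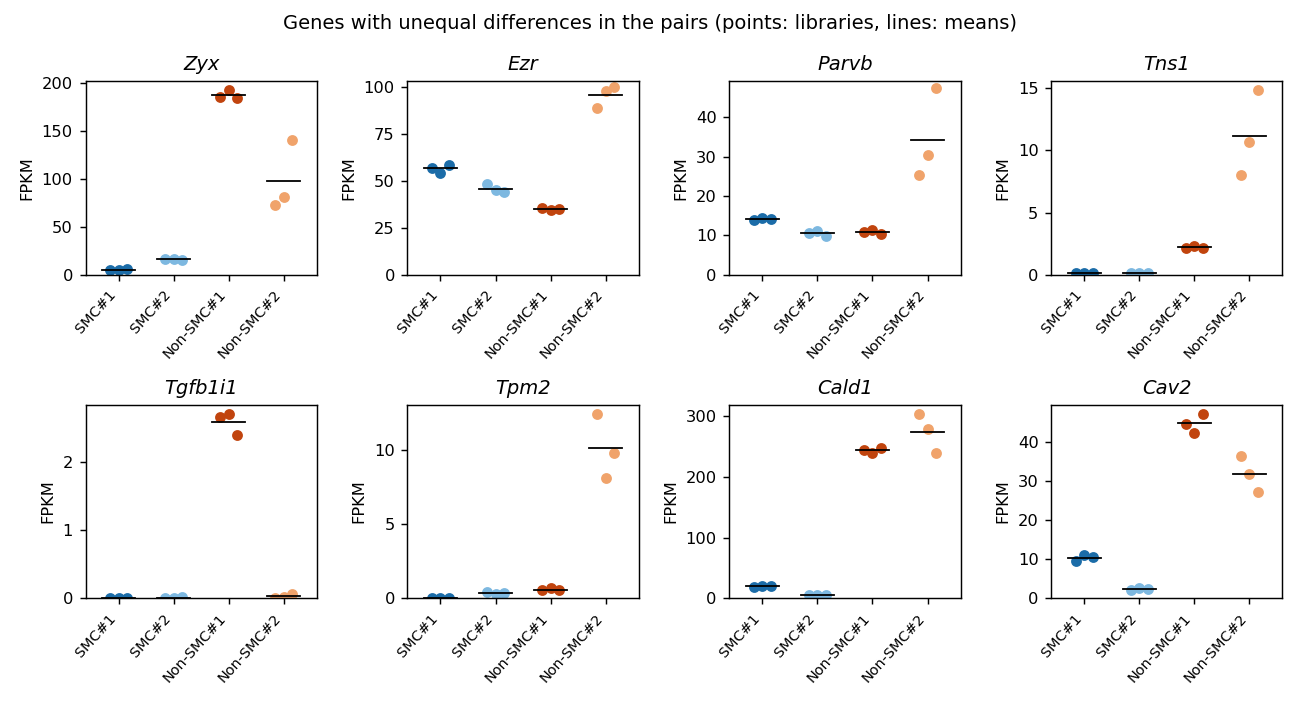
FPKM of 8 genes in each library (points) with the mean of each line (black bars), SMC lines on the left of each panel. Tns1, Tgfb1i1 and Tpm2 differ mainly between the Non-SMC lines, Cald1 between the SMC lines, Zyx and Cav2 within both groups, and Ezr and Parvb are highest in Non-SMC#2 (88.9 to 99.7 and 25.3 to 47.4 FPKM).

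The libraries of Non-SMC#2 were less alike than those of the other lines. For genes of at least 5 FPKM the median coefficient of variation of the 34 genes was 14.5% in Non-SMC#2 (12.03% over all genes), against 2.12 to 5.12% in the other 3 lines. The all-gene ratio between these libraries moved with transcript length. In replicate 3 over replicate 1 of Non-SMC#2 the median log2 ratio over all genes was -0.28 for transcripts under 2000 bases and 0.19 for those over 5000 bases. For the 32 of the 34 genes that reached 5 FPKM the medians were higher in each length class, with 0.08 under 2000 bases (6 genes), 0.17 from 2000 to 5000 bases (18 genes, beside 0.03 over all genes) and 0.70 over 5000 bases (8 genes, such as Flna, Flnc, Tln1 and Tns1). Zyx and Parvb, of 2000 to 5000 bases, also spread widely in this line. The part of transcript length in the pair 2 values of these genes was not tested.

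**Figure D5:**
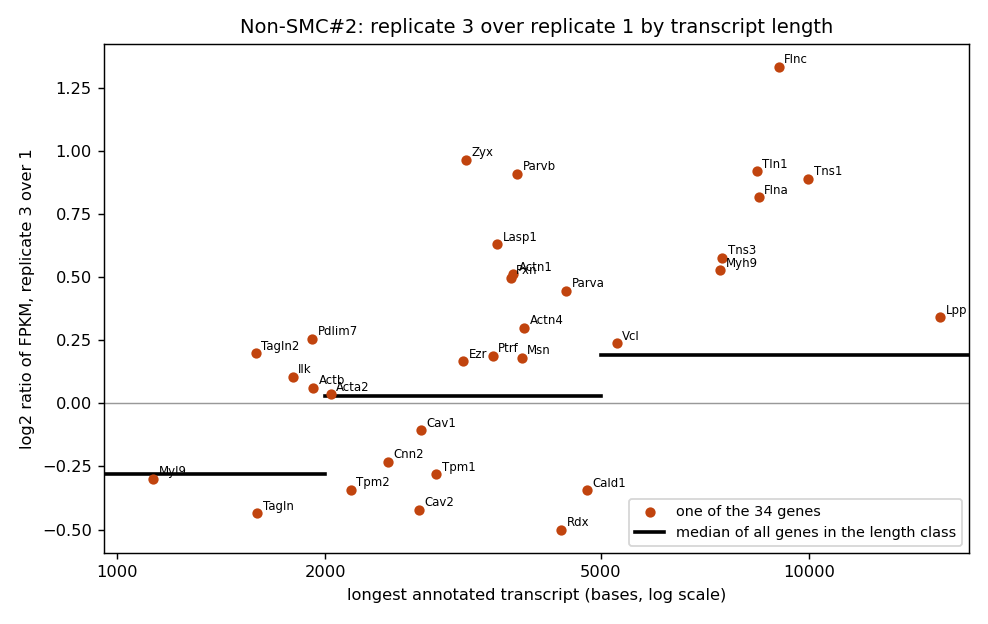
Log2 ratio of FPKM in replicate 3 over replicate 1 of Non-SMC#2 against the length of the longest annotated transcript (log axis), for 32 of the 34 genes with at least 5 FPKM (points), with the median of all genes in each length class (black bars, -0.28, 0.03 and 0.19). The long genes lie above 0, with a median of 0.70 for the 8 over 5000 bases.

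Other genes of the same machinery were read from 7 lists of 83 genes in all, of which 72 could be tested. In SMC lines 50 were lower, 16 higher and 6 not past the test, with a median log2 difference of -1.07, beside 42.4% lower, 44.7% higher and a median of 0.02 over all genes tested. With the line as the unit 25 were lower and 5 higher, beside 9.72% and 8.49% of all genes tested. The lower counts and medians of the lists include genes that passed the filter only through Non-SMC libraries and so had to be lower. Ajuba, Dock1, Ehd2 and Prkcdbp are among these genes. Tagln3 passed only through SMC libraries and so had to be higher. Of 19 testable adhesion plaque genes 15 were lower and 4 higher over both pairs (median log2 difference -1.59), and not all kept that direction in pair 1. Ajuba, a LIM protein of adhesions, was at 0.0249 to 0.110 FPKM in SMC and 33.7 to 39.3 in Non-SMC (-5.14), and Sorbs3 (vinexin, a vinculin partner) fell by 3.24 on the log2 scale. Fermt1, a kindlin of epithelia, was higher in SMC (7.48 to 9.91 FPKM, against 0 in Non-SMC#1 and 5.92 to 6.47 in Non-SMC#2). Its log2 difference was 3.34 in pair 1 and 0.315 in pair 2 (pair 1 minus pair 2 3.02, limma adjusted p = 2.31e-11). Evl, an actin elongation factor, was higher as well (60.1 to 108 FPKM in SMC libraries and 21.7 to 32.6 FPKM in Non-SMC libraries).

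Of 14 testable adhesion signaling genes, 9 were lower and 5 higher over both pairs, with a median log2 difference of -0.28, beside 42.4% lower and 44.7% higher over all genes tested. Not all of them passed the test in the same direction in pair 1. Dock1, an activator of Rac, was listed at 0 in all 6 SMC libraries, against 8.34 to 17.8 FPKM in Non-SMC, and Bcar1 (p130Cas, an adhesion scaffold) fell by 2.22 on the log2 scale. Elmo1, a partner of DOCK proteins, was higher in SMC (10.3 to 13.2 FPKM, with 1.19 to 3.29 in the Non-SMC group), as was Arhgef7 (beta-PIX, a Rac and Cdc42 activator), with a log2 difference of 1.18. Of 14 testable genes of myosin II and its regulators, 8 were lower and 3 higher over both pairs, with a median of -0.34 beside the same shares. Not all of these calls held in pair 1. Rhoc, a small GTPase that acts on actomyosin, had 0.242 to 1.16 FPKM in SMC and 172 to 198.5 in Non-SMC (-6.89), and Myl12a, a regulatory light chain, had 24.7 to 33.0 FPKM in SMC and 311 to 414 in Non-SMC (-3.69). Myh14 (3.75) and Rock1, a kinase that activates myosin II (0.56), were higher in SMC, and Myh10, Rock2 (-0.05) and the phosphatase gene Ppp1cb (0.15) did not pass the test.

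On a list of paralogs of the 34 genes that the other lists do not hold, 7 could be tested, of which 6 were lower and 1 higher (42.4% and 44.7% of all genes tested). Tagln3, the transgelin of neurons, had 29.0 to 45.0 FPKM in SMC and 0 to 0.671 in Non-SMC (log2 difference 5.01), and it made up 14.8 to 25.4% of the summed transgelin FPKM in SMC libraries and at most 0.0991% in Non-SMC libraries. Cnn3, the calponin of neural and other cells, was lower in SMC (33.4 to 42.7 FPKM, with 276 to 304 in the Non-SMC group), yet it made up 93.4 to 99.7% of summed calponin FPKM in SMC libraries and 55.1 to 61.95% in Non-SMC libraries. Of 6 further caveola genes that could be tested, 5 were lower over both pairs (42.4% of all genes tested), led by Ehd2, a caveola neck ATPase (0.173 to 0.391 FPKM in SMC and 65.2 to 90.0 in Non-SMC), and Prkcdbp (cavin-3), listed at 0 in all 6 SMC libraries. The 5 include a gene that did not pass the test in pair 1 (log2 difference 0.046, limma adjusted p = 0.651). That gene, Ehd2 and Prkcdbp passed the filter only through Non-SMC libraries and so had to be lower over both pairs. Murc (cavin-4) did not pass the test (-0.05).

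A list of 6 genes for membrane to cortex linkage was split much as all genes tested (42.4% lower, 44.7% higher): 3 were lower (among them the ERM partner Slc9a3r1, -2.75, and the ERM kinase Stk10, -1.24), 2 were higher (Slc9a3r2, 0.40, and Nf2 or merlin, 0.26) and Podxl did not pass the test over both pairs. Podxl rose in pair 1 (1.30, limma adjusted p = 2.93e-07) and fell in pair 2 (-1.61, limma adjusted p = 3.06e-08). Slc9a3r2 also rose in pair 1 (1.21, limma adjusted p = 2.01e-08) and fell in pair 2 (-0.42, limma adjusted p = 0.000504). Nf2 did not pass the test in pair 2 (0.19, limma adjusted p = 0.0594). Of 6 testable genes for SRF and its partners, 4 were lower (42.4% of all genes tested), including Srf itself (14.0 to 15.5 FPKM in SMC libraries and 17.9 to 31.0 FPKM in Non-SMC libraries, log2 difference -0.65), Elk3 (-3.09) and Mkl1 (MRTF-A, -1.43). Mkl2 (MRTF-B) was higher over both pairs (0.32) but did not pass the test in pair 1 (0.14, limma adjusted p = 0.39). Elk1 did not pass the test (-0.08), and Myocd stayed at or under 0.0219 FPKM in each library.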

How the data were processed

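Total RNA of 12 libraries was read in pairs of 150 bp on an Illumina NovaSeq. The submitters' processing notes name STAR 2.6.1b as the aligner. The authors deposited FPKM in 1 table, with a column for each library. The software behind the FPKM values, the strand setting and the handling of reads with several positions were not stated. The notes name mm10, yet table positions are those of mm9: all 34 genes lay on the GRCm38.p6 chromosome, 0 had its start and 14 had its length. Gene positions are given in mm9, counted from 1, and promoter windows in GRCm38.p6 (RefSeq), where Ptrf was matched as Cavin1.

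A row entered the tests when 3 or more libraries reached 1 FPKM (13122 of 24458 rows). A mean per line was fitted to log2(FPKM + 1) with limma 3.58.1 (trend and robust) in R 4.3.3. This scale understates changes of low genes. SMC minus Non-SMC was the mean of both within-pair differences, and an interaction gave pair 1 minus pair 2. P-values were two-sided and Benjamini-Hochberg adjusted over all rows, with calls under 0.05. A value of 0 can be a failed estimate, so such genes are described as listed at 0 and get no fold. The table gives no counts, so fragment numbers were estimated from the spacing of low values with a 300-base fragment, and they limit the precision of values near 0. The procedure was tested on simulated data with the spread of libraries within lines, levels well above 0 and no spread between lines. That test therefore does not cover genes near 0 or differences between lines of a group.

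The 34 genes and the lists were chosen with earlier results of these data known. All 34 genes are named. Library values are given for the 6 largest and the 6 smallest differences and for genes whose pairs or lines differed by at least 2 on the log2 scale. Up to 2 called genes per list and direction are named, and those not past the test where there were 3 or fewer, except that some list genes are not reported here. Naming Srf and Myocd was decided after their values were seen. Alternatives were a pseudocount of 0.1, no filter, quantile or median-ratio scaling, limma without trend and robust, a replicate block, leaving out each library, the line as the unit, and 6 libraries against 6 without line terms.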

Additional observations from a re-analysis of the deposited data

Results flagged for a closer look

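In groups of 6 libraries, 4 single values stood apart from the rest of their group by Dixon's criterion, out of 67 groups examined, of which chance gives about 1 in 20. They were the highest SMC value of Actn1 (33.64 FPKM, SMC#1 replicate 3), the highest Non-SMC values of Pdlim7 (126.0 FPKM) and Lasp1 (109.1 FPKM), both in Non-SMC#2 replicate 3, and the lowest Non-SMC value of Flna (191.5 FPKM, Non-SMC#2 replicate 1).

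The difference between SMC and Non-SMC lines was unequal in the pairs by at least 1 on the log2 scale for 15 genes (limma interaction, adjusted p under 0.05). Given as pair 1 minus pair 2, where a positive value is a smaller fall or a rise in pair 1, it was 2.37 for Tpm2, 2.15 for Msn, 1.93 for Parvb, 1.89 for Tns1, 1.89 for Cald1, 1.73 for Ezr, 1.67 for Tpm1, 1.44 for Ptrf, 1.30 for Cav2, 1.20 for Actb and 1.11 for Lpp. It was -2.46 for Zyx, -1.81 for Tgfb1i1, -1.79 for Cnn2 and -1.14 for Cnn1. Each pair is 1 SMC line and 1 Non-SMC line, so the pair and the line cannot be told apart.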

How the results depend on the processing

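Of the values of single genes under the alternatives, 3270 kept their direction and their side of the threshold, 83 lost a call, 6 gained one and 3 reversed. The reversed values were those of Ezr, SMC minus Non-SMC (0.066 under quantile normalization, main value -0.18), Cav1, pair 1 minus pair 2 (1.23 with a pseudocount of 0.1, main value -0.19) and Actb, Non-SMC#1 minus Non-SMC#2 (0.067 under quantile normalization, main value -0.57). For Cav1 the main value did not pass the test, whereas the value with a pseudocount of 0.1 did (limma adjusted p = 0.000794). The cause was not tested. With the line as the unit, 0 of the 34 genes were called higher in place of 1, the list genes called lower were 25 in place of 50 and higher 5 in place of 16, and 2389 of all genes were called in place of 11430. This fit has fewer samples and 1 residual degree of freedom.

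With 1 library left out at a time, 33 to 33 of the 34 genes were lower and 1 to 1 higher, pair 1 had 31 to 31 lower and 2 to 3 higher, and pair 2 had 32 to 32 lower and 1 to 1 higher. The pairs differed for 29 to 33 genes, the SMC lines for 19 to 24 and the Non-SMC lines for 23 to 28. List genes were lower for 50 to 52 and higher for 15 to 16, and 11229 to 11631 of all genes were called. With a replicate block, 11426 of all genes were called. Deviations of same-numbered libraries correlated at -0.38 to -0.02 in pair 1 and -0.08 to 0.31 in pair 2. Over both pairs these values had no common sign. With 3 libraries per line they cannot settle whether the numbers pair the libraries. Quantile normalization shifted the median of all genes in pair 2 by 0.119. Depth limits values near 0, such as those of Acta2 and Flnc in SMC lines.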
